A study of Mus musculus with 2 samples.

Results

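Genes that handle arginine, nitric oxide, itaconate and tryptophan were followed in myeloid cells of a mouse malignant pleural effusion. They are Arg1, Arg2, Nos2, Odc1, Irg1 (now named Acod1), Ass1, Slc7a2 and Ido1, which were picked by symbol and make up 8 of the 27998 genes in both count matrices. All 8 were found, 7 of them were abundant enough to be tested, and Ido1 was not. The study held 1 group, with 2 single-cell libraries. Mice had received an injection of 150000 LLC cells, the Lewis lung carcinoma line, into the pleural space in 100 µl of saline, and the effusion was collected at day 10. Live cells positive for CD45, carried by all leukocytes, and for CD11b, carried by most myeloid cells, were sorted after red cells had been lysed. The labels name no untreated group, strain, age or number of animals, so every comparison below is between cell types within the effusion. They also do not say whether the libraries are separate animals. The p-values measure only how far differences between cell types varied over these 2 libraries, part of which may be technical. A shift shared by all cell types of a library is taken out by the fit.

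Myeloid cells compete over arginine. Arginase, as cytosolic Arg1 or mitochondrial Arg2, splits it into urea and ornithine, and ornithine decarboxylase (Odc1) turns ornithine into putrescine, the first polyamine. Inducible nitric oxide synthase (Nos2) uses the same arginine to make nitric oxide and citrulline, argininosuccinate synthase (Ass1) starts the rebuilding of arginine from citrulline, and the cationic amino acid transporter Slc7a2 brings arginine into the cell. Irg1 makes itaconate from a citric acid cycle intermediate in activated phagocytes, and Ido1 opens the breakdown of tryptophan towards kynurenine. Arg1 and Nos2 are the textbook pair of alternative and classical macrophage activation, and arginase in tumour-associated myeloid cells is known for depleting the arginine that T cells need.

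In the GENCODE M21 annotation of GRCm38 (mm10), Arg1 lies at chr10:24915221-24927484 on the minus strand and Nos2 at chr11:78920787-78960254 on the plus strand. Arg2 lies at chr12:79130777-79156301 and Odc1 at chr12:17544794-17551505, both on the plus strand. Irg1 lies at chr14:103046977-103056573, Ass1 at chr2:31470207-31520672 and Slc7a2 at chr8:40862396-40922308, all on the plus strand, and Ido1 at chr8:24584136-24597009 on the minus strand. All 8 are protein-coding. Arg2 overlaps Vti1b on the opposite strand, and Vti1b itself held 1088 and 1828 UMIs (unique molecular identifiers, one per captured RNA molecule) in libraries 1 and 2. Whether the counting used strand is not given in the sources used here, so Arg2 counts could include reads of that neighbour.

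Upstream sequence from RefSeq (GRCm38.p6) was held for 3 of the 8 genes. It is shown because their starts differ in base composition and, of the 6 cell types below, Irg1 was highest in neutrophils and Odc1 and Ass1 in dendritic cells. The lines below run 5′ to 3′ on the plus strand up to the base before the annotated start, at chr14:103046762-103046976, chr12:17544623-17544793 and chr2:31470020-31470206, and capitals mark CpG dinucleotides.
Irg1: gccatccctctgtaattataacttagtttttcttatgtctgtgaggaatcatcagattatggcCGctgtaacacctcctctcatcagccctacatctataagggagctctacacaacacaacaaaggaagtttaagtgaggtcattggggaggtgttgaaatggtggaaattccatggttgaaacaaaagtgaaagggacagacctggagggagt
Odc1: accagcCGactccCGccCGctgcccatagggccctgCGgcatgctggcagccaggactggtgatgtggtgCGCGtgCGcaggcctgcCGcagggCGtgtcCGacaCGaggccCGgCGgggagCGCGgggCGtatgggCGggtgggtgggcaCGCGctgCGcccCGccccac
Ass1: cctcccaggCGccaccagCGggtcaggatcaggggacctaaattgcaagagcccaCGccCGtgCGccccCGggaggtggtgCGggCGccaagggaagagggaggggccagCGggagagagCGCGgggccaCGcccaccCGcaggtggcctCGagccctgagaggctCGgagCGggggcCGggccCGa
The 215 bases of Irg1 held 1 CpG at 43.3% G or C, while the median over all promoters of that length was 5 at 51.6%. The 171 bases of Odc1 held 21 CpG at 77.2% G or C, against medians of 3 and 50.9%. Ass1 was alike, with 18 CpG in 187 bases at 75.4% G or C, against medians of 4 and 51.3%. The files hold no chromatin or methylation measurement, so these are descriptions of sequence.

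Library 1 held 1141 cells with 11543829 UMIs (median 9894 per cell) and library 2 held 2908 cells with 20322996 UMIs (median 1954 per cell). Only 4 cell barcodes occurred in both. The libraries stood apart in composition and in origin of the cells. Of the cells with Xist or Y-linked RNA, 767 of 767 in library 1 held Y-linked RNA alone, while in library 2 the split was 1331 with Xist alone, 113 with Y-linked RNA alone and 68 with both, of 1512. Among cells with such RNA, most of library 2 thus came from other animals than those of library 1. For these cells the sex of the animal and the library cannot be told apart. Library 2 held cells with either kind of RNA alone, and whether it mixes animals was not tested. Library 2 also carried 2 rows of tag counts, BC2 and BC3, that the labels do not explain, and 1519 of its 1566 neutrophils lay on the BC3 side while 428 of its 436 C1q macrophages lay on the BC2 side. In library 2, neutrophil against macrophage therefore follows the tags closely, and the 2 cannot be told apart there except in the 47 neutrophils of the BC2 side.

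Cell types were gated on marker UMIs, with none of the 8 genes among the markers, so that tests on them do not reuse the gating. The 6 gates were neutrophils (86 cells in library 1 and 1566 in library 2), monocytes (80 and 160), Apoe-positive C1q-low cells of the monocyte lineage (336 and 350), C1q macrophages (290 and 436), large cavity macrophages (64 and 44) and dendritic cells (143 and 42). Neutrophils made up 7.71% of kept cells in library 1 and 55.0% in library 2, and held a median of 2216 and 1315 UMIs per cell. The other 5 gates held medians between 9188 and 14026. Gating markers lead their own gates by construction. Leading genes of both libraries that took no part in gating included Stfa2l1 and G0s2 in neutrophils and Folr2 and Cbr2 in C1q macrophages. They included Cd5l and Serpinb2 in large cavity macrophages and H2-Oa and Ccl5 in dendritic cells. Monocytes shared only Dmkn among the leading genes of both libraries. Apoe-positive C1q-low cells shared none, with Apoc1 first in library 1 and Ifng first in library 2. Levels are given as CPM, the UMIs of a gene per 1000000 UMIs of the gate, where 95% intervals cover counting error only. CPM values are compared between gates for 1 gene, not between genes.

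Arg1, the cytosolic arginase, was highest in the macrophage gates of both libraries. In library 1 its level was 6368 CPM in large cavity macrophages, 5978 in C1q macrophages, 5160 in Apoe-positive C1q-low cells, 3501 in monocytes, 1636 in neutrophils and 152 in dendritic cells. The counting intervals of neighbours in this order did not overlap. In library 2 the levels were 1714 CPM in large cavity macrophages, 1322 in C1q macrophages, 899 in Apoe-positive C1q-low cells, 327 in monocytes, 277 in dendritic cells and 186 in neutrophils. The order of the macrophage gates was the same, and only monocytes and dendritic cells had overlapping intervals. The library with the higher Arg1 was library 1 in 5 of the 6 gates. It was higher there by 10.7-fold in monocytes, 8.80-fold in neutrophils, 5.74-fold in Apoe-positive C1q-low cells, 4.52-fold in C1q macrophages and 3.72-fold in large cavity macrophages, whereas dendritic cells had 0.548 times the level of library 2. The spread between libraries was thus larger than most differences between neighbouring gates.

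**Figure D1:**
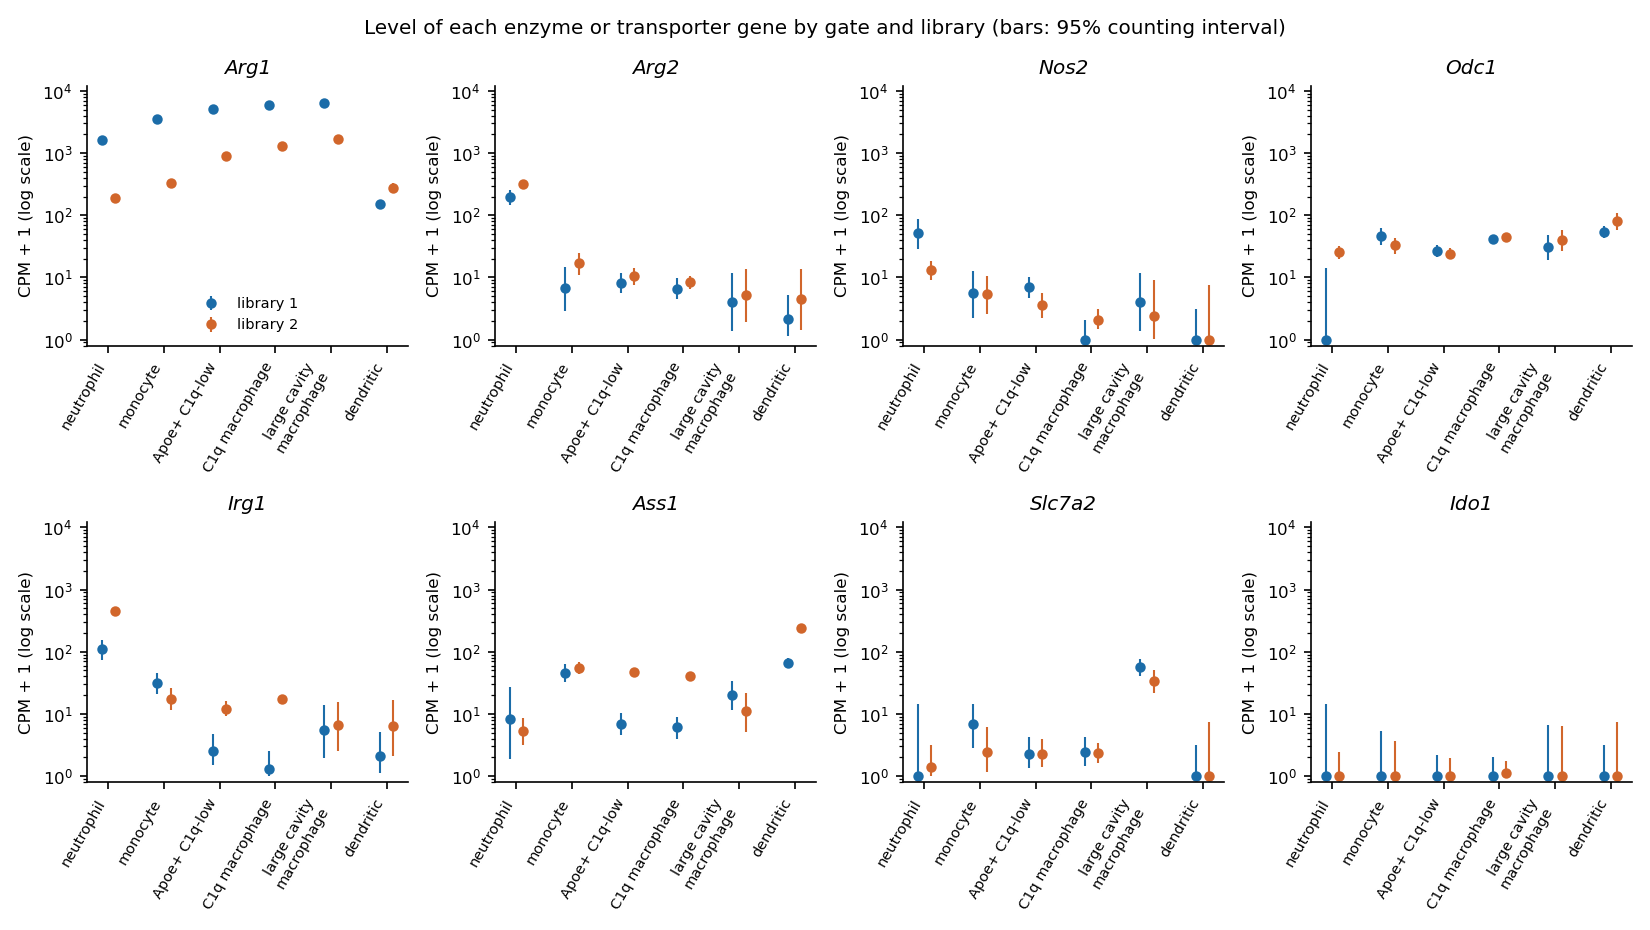
Level of each gene, in CPM on a log scale, in the 6 gates, with library 1 in blue and library 2 in orange and 95% counting intervals as bars. Arg1 rises from dendritic cells and neutrophils to macrophages in both libraries, while Arg2, Irg1 and Nos2 peak in neutrophils and Slc7a2 in large cavity macrophages.

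Many macrophages carried Arg1 RNA, and more of them in library 1. To compare cells of unequal depth, each cell was thinned to 1000 UMIs, and the unthinned share is given in brackets. Among C1q macrophages 85.7% (96.2%) of cells in library 1 and 42.8% (67.9%) in library 2 held an Arg1 UMI. Among large cavity macrophages the shares were 87.5% (96.9%) and 35.8% (59.1%), and among Apoe-positive C1q-low cells 68.0% (86.3%) and 25.5% (43.4%). Monocytes were lower, at 48.6% (77.5%) and 10.5% (23.1%). As a measure of background, B cells held a thinned share of 9.44% in library 1, where they had 12 Arg1 UMIs in 26 cells at a median of 5488 UMIs, and none in the 12 B cells of library 2, which allows up to 25.0%. Dendritic cells of library 1, at 8.12% (55.2%), lay below the B cell share after thinning and above its unthinned 42.3%. Their level of 152 CPM had an interval of 134 to 171, which overlapped the 47.1 to 159 of B cells at 91.1 CPM. Neutrophils of library 1, at 14.8% (23.3%), lay above the B cell share after thinning and below it unthinned. Whether the dendritic Arg1 is background was not tested. In library 2 dendritic cells were at 6.41% (21.4%) and neutrophils at 3.65% (5.04%), and 12 B cells are too few to place these shares. By level both lay above the 61.9 CPM that is the upper limit for B cells of library 2. The 48 T or NK cells of library 2, another type that should lack Arg1, held it at 503 CPM, above the neutrophils and monocytes of that library. These T or NK cells also carried macrophage RNA, with Apoe at 1775 CPM and Pf4 at 1531. Their C1q macrophage markers, with 7 of 7 genes detected, summed to 2444 CPM. The median C1q macrophage held 50.4 Arg1 UMIs per 10000 in library 1 and 4.03 in library 2, and the highest single cell held 570 Arg1 UMIs.

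**Figure D2:**
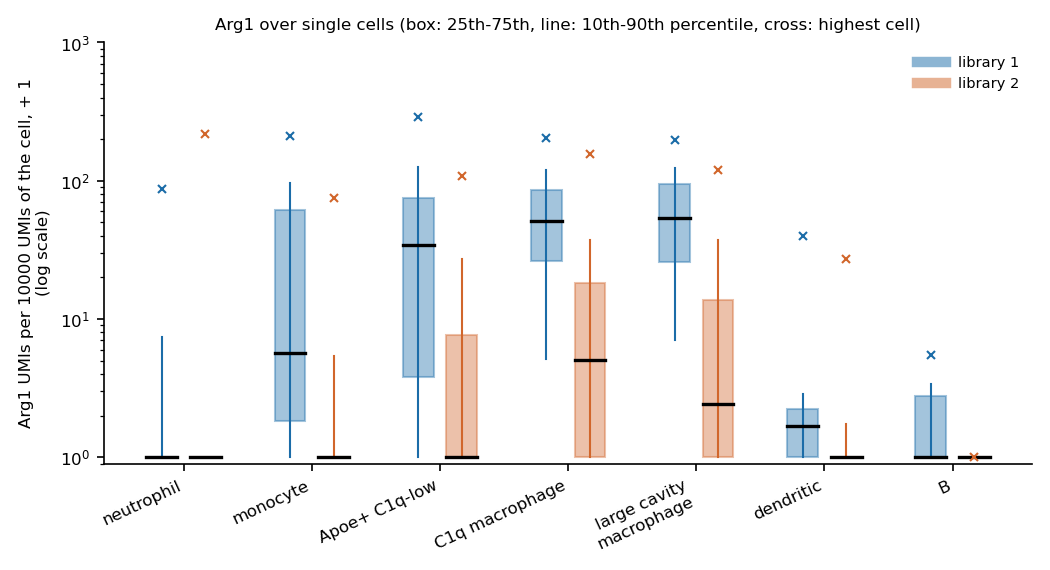
Arg1 UMIs per 10000 UMIs of the cell, plus 1, on a log scale, for 6 gates and B cells, with library 1 in blue and library 2 in orange (box 25th to 75th percentile, black line median, thin line 10th to 90th percentile, cross highest cell). In library 1 the median is above 0 in all but neutrophils and B cells. In library 2 it is above 0 in the C1q and large cavity macrophages alone, so neutrophils are at 0 in both.

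Few cells carried most Arg1 of the neutrophil gate. In library 1 the top 9 of 86 cells held 97.6% of its 454 Arg1 UMIs, and in library 2 the top 5 of 1566 cells held 391 of 479. Dendritic cells were alike in library 2, where 5 cells held 153 of 157 UMIs, and less so in library 1, with 157 of 266. Macrophage RNA was also found in this gate. In library 1 the neutrophil gate held Arg1 at 31.7% of its level in Apoe-positive C1q-low cells, and Apoe, Pf4, Ppbp, Mrc1, Folr2 and Cd163 at 12.2% (Cd163) to 45.3% (Mrc1). In library 2 Arg1 was at 20.7%, and those genes at 16.2% (Apoe) to 35.8% (Ppbp). Of the level in C1q macrophages, Arg1 was at 27.4% and 14.1%, and those genes at 6.13% (Cd163) to 31.2% (Apoe) and at 10.3% (Pf4) to 34.5% (Ppbp). The C1q macrophage marker list, with 7 of its 7 genes detected, summed to 2234 and 958 CPM in the neutrophil gate, while tumour or epithelial markers were at 0 for all 4 genes in both libraries. Free or doublet RNA as the source of this Arg1 was not tested.

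Neutrophils were then split by whether they held a UMI of Apoe or of Pf4, genes of macrophages and, for Pf4, of platelets. This split was chosen after the data had been seen. With such a UMI (65 and 573 cells) Arg1 was at 1956 CPM in library 1 and 378 in library 2. Without one (21 and 993 cells) it was at 84.2 CPM, which is 4 UMIs, and at 24.3 CPM, which is 34 UMIs. Arg2 and Irg1 went the other way. Arg2 was at 170 and 275 CPM with an Apoe or Pf4 UMI, and at 316 and 351 CPM without. Irg1 was at 69.6 and 394 CPM with, and at 295 and 499 CPM without. Counting intervals were apart in both libraries for Arg1 and Irg1, and in library 2 alone for Arg2. The tag sides of library 2 showed a like division, since the 47 neutrophils of the BC2 side, with a median of 4695 UMIs, held Arg1 at 1311 CPM and Irg1 at 95.5, and the 1519 of the BC3 side, with a median of 1306 UMIs, held Arg1 at 29.6 and Irg1 at 500.4.

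**Figure D3:**
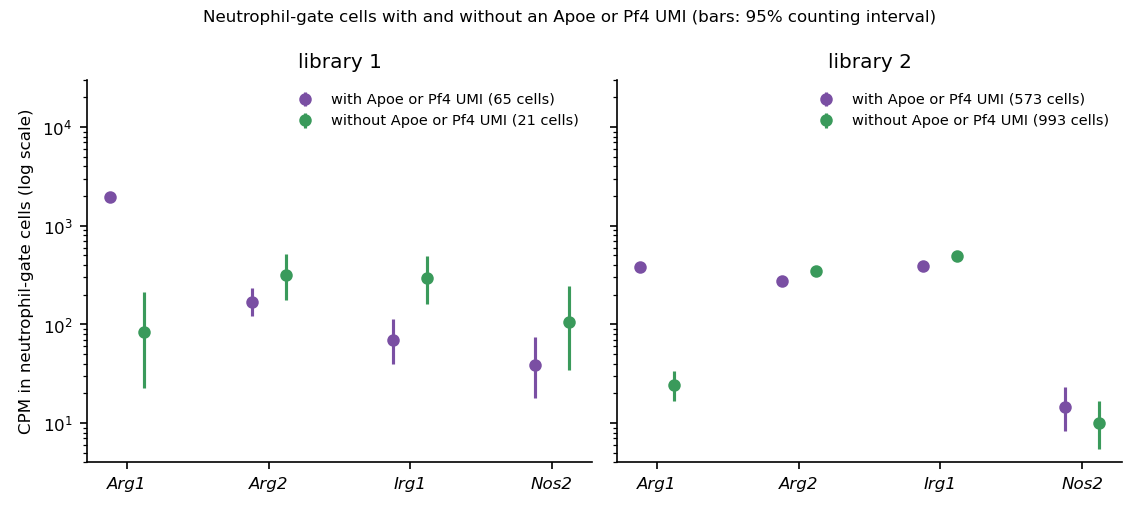
CPM of Arg1, Arg2, Irg1 and Nos2, on a log scale, in neutrophil-gate cells with (purple) and without (green) an Apoe or Pf4 UMI, by library, with 95% counting intervals. Arg1 is at 84.2 and 24.3 CPM in the cells without such a UMI, while Arg2 and Irg1 are not lower there.

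Gates were compared on UMIs summed per gate and library, with edgeR's quasi-likelihood test, library as a block and Benjamini-Hochberg adjustment over 8921 genes, and a gene was called at an adjusted p under 0.05. Scaling by TMM, which centres the bulk of genes, moved the median of all genes by 0.53 on the log2 scale between neutrophils and monocytes and by 0.57 between neutrophils and C1q macrophages, relative to library sizes alone. Of the genes called there, 52.6% and 49.6% were higher in neutrophils with TMM, and 26.9% and 27.2% without. None of the 7 tested members changed direction between those scalings in either comparison. The distance between C1q macrophages and dendritic cells moved by 0.11, and the split of calls went from 45.4% to 54.8% higher.

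Neutrophils carried the mitochondrial arginase, the itaconate enzyme and inducible nitric oxide synthase above monocytes. Of the 7 tested members 3 were higher and 1 was lower in neutrophils, where 23.9% of all tested genes were higher, 21.5% lower and 45.4% called in either direction. Arg2 was 32.2-fold higher (log2 5.01 ± 0.25 SE, adjusted p = 1.2e-08, higher in 2 of 2 libraries). Irg1 was 17.2-fold higher (log2 4.11 ± 0.61, adjusted p = 0.00014), with 3.59-fold in library 1 and 27.1-fold in library 2. Nos2 was 6.69-fold higher (log2 2.74 ± 0.70, adjusted p = 0.00636), with 10.9-fold and 2.77-fold. Ass1, the citrulline-recycling enzyme, was 10.5-fold lower (log2 -3.39 ± 0.84, adjusted p = 0.00493, 2 of 2). Arg1 gave log2 -0.62 ± 0.59 (adjusted p = 0.408), Odc1 -0.33 (0.527) and Slc7a2 -2.30 (0.154), none of them called. The Arg1 value depended on which cells were kept. It was log2 -3.89 (adjusted p = 8.9e-06) without cells of over 3 times the median UMIs of their gate and library, -4.28 (4.7e-05) without the neutrophils holding an Apoe or Pf4 UMI, and 0.48 (0.775) with the BC2 side of library 2 alone, and over the alternative settings its adjusted p ran from 8.9e-06 to 0.899. With the BC2 side alone Irg1, Nos2 and Ass1 were no longer called and Arg2 still was, and without the library block Ass1 lost its call.

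Against C1q macrophages the same 3 genes stood higher in neutrophils and 2 stood lower, where 55.7% of all tested genes were called, 27.7% higher and 28.1% lower. Arg2 was 57.2-fold higher (log2 5.84 ± 0.22, adjusted p = 5.5e-10) and Irg1 48.8-fold (log2 5.61 ± 0.55, adjusted p = 1.9e-06), which was 27.7-fold in library 2 and rested on 1 macrophage UMI in library 1. Nos2 gave log2 5.26 ± 0.69 (adjusted p = 3.9e-05). Since C1q macrophages of library 1 held no Nos2 UMI, the 14 neutrophil UMIs there were set against a floor of 3 UMIs, which gave 59.8-fold. That value leaves out the counting error of the neutrophil UMIs. In library 2 the plain ratio was 11.4-fold. Arg2, Irg1 and Nos2 were called in this comparison under all 10 alternative settings that could be fitted, not counting the one without Apoe or Pf4 cells, which was added later. Arg1 was 3.55-fold lower in neutrophils (log2 -1.83 ± 0.60, adjusted p = 0.0185, lower in 2 of 2 libraries). Without large cells it was log2 -5.09 (adjusted p = 3.9e-07), without cells holding Apoe or Pf4 -5.44 (2.0e-06), and its call ended without the block, with lower gate cuts or with the BC2 side alone, so that its adjusted p ran from 1.3e-19 to 0.630 over the alternatives. Ass1 was lower (log2 -2.11 ± 0.83, adjusted p = 0.0442) in library 2 alone, at 4.27 against 39.7 CPM, while library 1 held only 2 and 18 UMIs, at 7.21 and 5.06 CPM, and it was called in 7 of 10 alternative settings.

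Between C1q macrophages and monocytes no member passed the test. Of the 7 tested members 0 were called by edgeR, where 1.14% of all tested genes were (0.516% higher and 0.628% lower). Arg1 was higher in C1q macrophages in both libraries, 1.71-fold and 4.04-fold, with log2 1.21 ± 0.59 and an adjusted p of 0.454. At an unadjusted p under 0.05 the count was 3 members, DESeq2 called 0, and 4 were called without the filter on low counts.

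Dendritic cells held less Arg1 and more Ass1 than C1q macrophages. Against them, C1q macrophages had 1 member higher and 1 lower of 7, where 21.9% of all tested genes were called, 9.95% higher and 12% lower. Arg1 was 9.67-fold higher in C1q macrophages (log2 3.27 ± 0.66, adjusted p = 0.00251, with 39.4-fold in library 1 and 4.78-fold in library 2). Ass1 was 7.31-fold lower in C1q macrophages (log2 -2.87 ± 0.46, adjusted p = 0.000397, with 13.1-fold and 6.04-fold). Neither was called without the library block. Against monocytes, dendritic cells had 1 member higher and 1 lower, where 13.9% of all tested genes were called, 7.34% higher and 6.56% lower. Ass1 was 3.01-fold higher in dendritic cells (log2 1.59 ± 0.50, adjusted p = 0.0481, called in 5 of 9 alternative settings), and Arg2 was 5.18-fold lower (log2 -2.37 ± 0.57, adjusted p = 0.0120, on 4 dendritic UMIs in all). Arg1 gave log2 -2.06 ± 0.66 with an adjusted p of 0.0524, being 23.1-fold lower in library 1 and 1.18-fold lower in library 2.

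Large cavity macrophages, the resident phagocytes of the pleural space, differed from C1q macrophages by the arginine transporter. Of 7 tested members 1 was higher and 0 lower, where 5.22% of all tested genes were called, 4.36% higher and 0.863% lower. Slc7a2 was 28.9-fold higher (log2 4.85 ± 0.45, adjusted p = 1.5e-05) and was called under all 10 alternative settings. It was at 55.5 CPM in library 1, from 37 UMIs in 14 of 64 cells, and at 33.0 CPM in library 2, from 23 UMIs in 13 of 44 cells. Where the other 5 gates held any UMI they were at 5.78 CPM or less. Neutrophils of library 1 held none, which allows up to 10.8 CPM, nor did dendritic cells, which allows up to 1.71 CPM in library 1 and 5.29 in library 2. Arg1 did not differ between these macrophages beyond its error (log2 0.23 ± 0.57, adjusted p = 0.906).

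**Figure D4:**
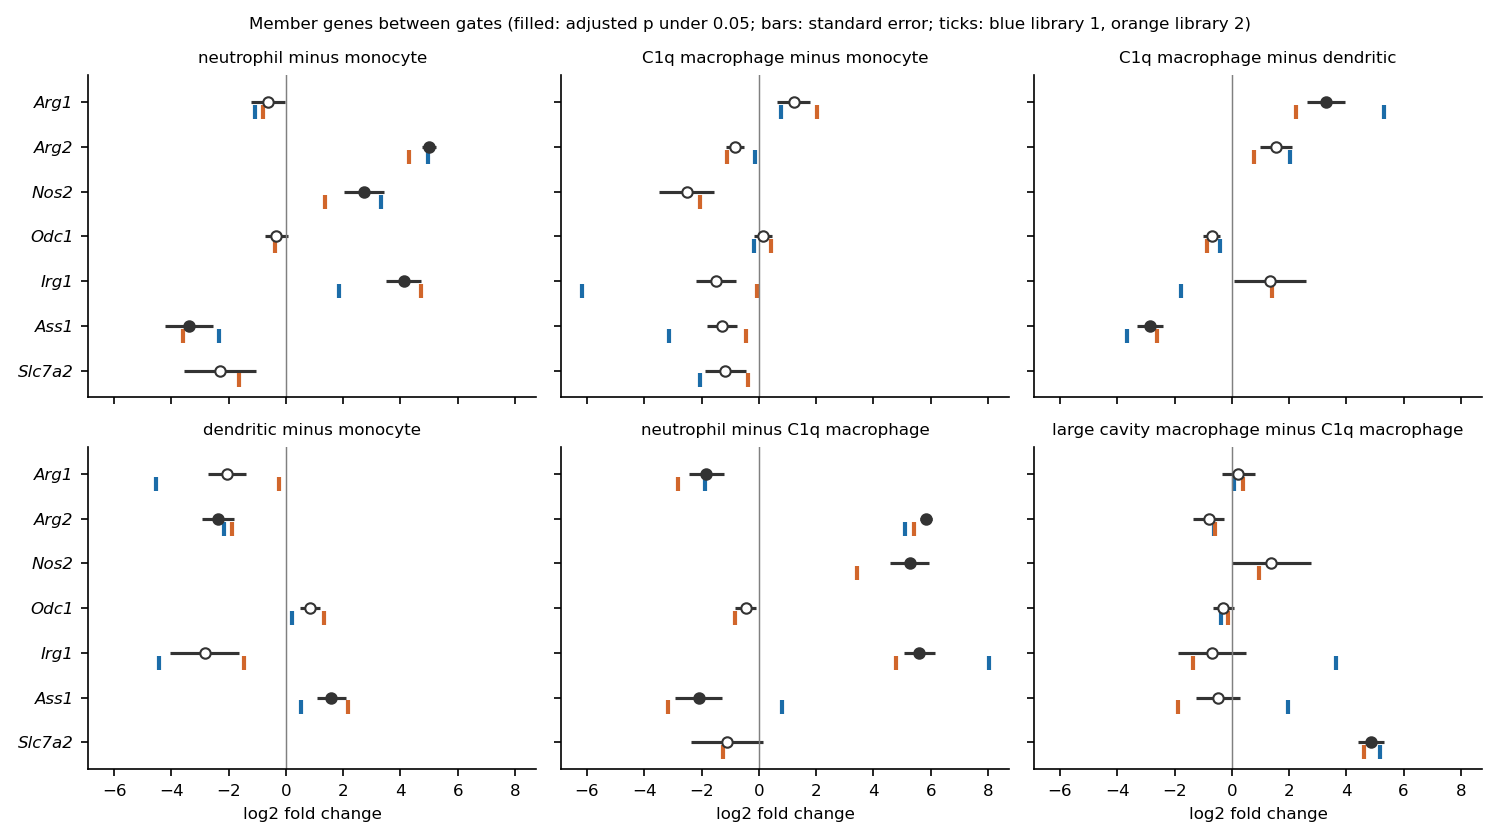
Log2 fold change of 7 genes in 6 comparisons of gates, as points with standard errors (filled where the adjusted p was under 0.05), with blue ticks for library 1 and orange ticks for library 2. A gate that held no UMI of a gene in both libraries has no point, and one at 0 in a library has no tick. Arg2 and Irg1 stand far right in both neutrophil panels and Slc7a2 in the large cavity macrophage panel.

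The UMIs of Arg2 and Irg1 were not gathered in a few neutrophils as those of Arg1 were. Arg2 was at 195 CPM (54 UMIs) in library 1 and 316 CPM (815 UMIs) in library 2, and the other 5 gates lay between 1.14 and 15.9 CPM. At 1000 UMIs per cell 22.4% of neutrophils in library 1 and 29.4% in library 2 held it. Irg1 was at 108 CPM (30 UMIs) and 451 CPM (1162 UMIs), with thinned shares of 12.7% and 31.8%, the first of them close to the 14.8% of Arg1 in that library. Library 2 was thus 4.17-fold higher in Irg1 and 1.63-fold higher in Arg2, the reverse of Arg1. No neutrophil held more than 7 Arg2 or 13 Irg1 UMIs. Outside neutrophils Irg1 was sparse: 25 of the 26 UMIs of monocytes in library 1 came from 1 cell, and C1q macrophages held 1 UMI in library 1 and 123 UMIs in 75 cells in library 2 (0.281 and 16.3 CPM). Arg2 and Irg1 met in the same neutrophils somewhat more often than the product of their shares: 15 cells against 8.40 in library 1 and 274 against 223 in library 2. After thinning to 1000 UMIs the figures were 4.64 against 2.46 and 126 against 113 cells. No test was made on these counts of cells.

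Nos2 was rare everywhere. It gave 39 UMIs in library 1 and 62 in library 2. Neutrophils held it at 50.4 CPM (14 UMIs in 10 cells) and 12.03 CPM (31 UMIs in 26 cells). Monocytes were at 4.63 and 4.34 CPM, Apoe-positive C1q-low cells at 5.97 and 2.54, C1q macrophages at 0 and 1.06, and large cavity macrophages at 3 and 1.43 (2 UMIs and 1 UMI). Dendritic and B cells held none. In library 2 the interval of neutrophils overlapped that of monocytes, the next gate down.

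Most monocytes and macrophages with Nos2 also held Arg1. In the 4 monocyte and macrophage gates together, 12 of 15 Nos2-positive cells of library 1 and 11 of 17 of library 2 also held Arg1, or 80.0% and 64.7%. Arg1 was in 90% and 51.6% of all cells of those gates, so that 13.5 and 8.77 double-positive cells would follow from the product of the shares. The share of Nos2 cells with Arg1 was therefore below that of all cells in library 1 and above it in library 2. Thinned to 1000 UMIs, it was 71.7% against 74.3% and 50.2% against 31.3%. Few cells stand behind these thinned shares. Without cells of over 3 times the median UMIs, which keeps all 15 and 17, thinning left an expected 2.67 and 2.23 Nos2-positive cells. Of these, 1.92 and 1.12 held Arg1, too few to read a difference from. At least 10 Arg1 UMIs were held by 8 of the 15 and 7 of the 17, with medians of 14 and 3 UMIs, and a share of this from free RNA was not tested. Among them were 3 of 3 and 2 of 2 Nos2-positive monocytes, 8 of 11 and 4 of 8 Apoe-positive C1q-low cells, and 5 of 6 C1q macrophages in library 2.

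In neutrophils, where Arg1 was in fewer cells, 2 of 10 Nos2-positive cells in library 1 and 2 of 26 in library 2 also held it, against products of 2.33 and 1.31. Nos2-positive neutrophils held Arg2 in 6 of 10 and 7 of 26 cells, against products of 4.42 and 9.38, and Irg1 in 2 of 10 and 10 of 26, against 2.21 and 10.3. At these counts no departure from the product could be made out. In Apoe-positive C1q-low cells the level of Arg1 was 4057 CPM in Nos2-positive cells and 5194 in the rest in library 1, and 1930 against 880 in library 2, so the direction was not the same in both. No gate held 20 Nos2-positive cells in both libraries, the number set for comparing other genes between Nos2-positive and Nos2-negative cells, and that comparison was not made.

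**Figure D5:**
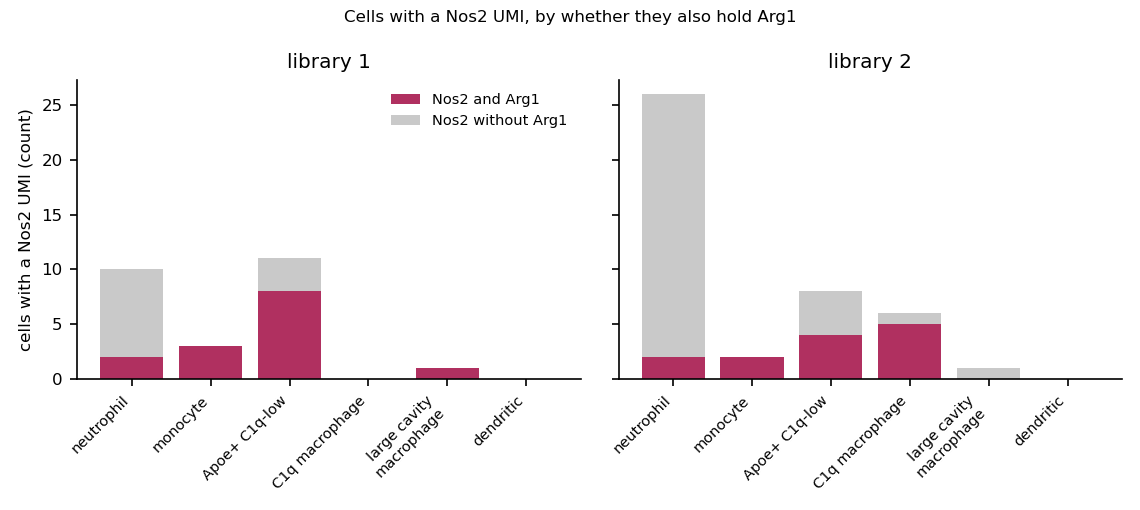
Number of cells with a Nos2 UMI in each gate, by library, divided into those that also held Arg1 (red) and those that did not (grey). Of 10 and 26 Nos2-positive neutrophils 2 each held Arg1, against 12 of 15 and 11 of 17 in the monocyte and macrophage gates.

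Odc1, the polyamine entry enzyme downstream of arginase, had another order over the gates than Arg1. It was at 40.2 and 43.4 CPM in C1q macrophages, 30 and 38.7 in large cavity macrophages, 45.1 and 31.9 in monocytes and 25.5 and 23.2 in Apoe-positive C1q-low cells. Dendritic cells, low in Arg1, were highest at 53.0 and 79.3 CPM, though in library 1 their interval overlapped that of monocytes. In library 2 the 27 dendritic cells of the BC2 side were at 49.9 CPM and the 15 of the BC3 side at 150. Neutrophils held no Odc1 UMI in library 1, which allows up to 10.8 CPM, and 24.5 CPM in library 2. Between libraries the levels of the monocyte and macrophage gates moved by at most 1.42-fold, while Arg1 moved by up to 10.7-fold. Odc1 was called in 0 of the 6 comparisons by edgeR and in 0 by DESeq2, and had an unadjusted p under 0.05 in the 2 with dendritic cells. In the 4 monocyte and macrophage gates 206 of 214 Odc1-positive cells in library 1 and 200 of 297 in library 2 also held Arg1, against products of 193 and 153. Thinned to 1000 UMIs, the figures were 19.8 against 17.1 and 10.7 against 8.80 cells. The pooled gates differ in both genes, and pooling alone can raise the overlap above the product. Within C1q macrophages Arg1 was at 6557 CPM in Odc1-positive cells and 5595 in the rest in library 1. In library 2 it was at 1297 and 1350 CPM. In each of the other pooled gates Arg1 was higher in Odc1-positive cells in both libraries.

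Of the 6 gates dendritic cells had the highest Ass1, though in library 1 the interval of dendritic cells overlapped that of monocytes. It was at 66.1 and 240 CPM in dendritic cells and at 220 and 218 CPM in B cells, where 16 of 26 and 7 of 12 cells held it. Monocytes were at 45.1 and 53.6 CPM. In C1q macrophages it was at 5.06 CPM in library 1 and 39.7 in library 2, and in Apoe-positive C1q-low cells at 5.97 and 45.6, so that library 2 was 7.85-fold and 7.63-fold higher. Monocytes, by contrast, differed between libraries by 1.19-fold. Ido1 was all but absent, with no UMI in library 1 and 2 UMIs in 2 of the 2908 cells of library 2.

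The genes around these enzymes were read from 10 lists of 132 genes. Counts of called list genes stand beside these shares of all tested genes, given as higher then lower. They were 23.9% and 21.5% for neutrophils against monocytes, and 27.7% and 28.1% for neutrophils against C1q macrophages. For C1q macrophages they were 9.95% and 12% against dendritic cells and 0.516% and 0.628% against monocytes. For dendritic cells against monocytes they were 7.34% and 6.56%, and for large cavity against C1q macrophages 4.36% and 0.863%. In the arginine, urea cycle and proline list, 0 of 9 tested genes were higher and 5 lower in neutrophils than in monocytes, with a median log2 of -1.55 against -0.07 over all genes. The lower genes included Gatm, which starts creatine synthesis from arginine (log2 -2.62 ± 0.42, adjusted p = 0.00022), Asl, the partner of Ass1 (-1.67 ± 0.24, adjusted p = 0.00012), and Slc7a7, an arginine exporter (-1.29 ± 0.29, adjusted p = 0.00244). Against C1q macrophages 1 was higher and 8 lower. Without TMM the counts were 0 higher and 8 lower in both comparisons, where the median of all genes was itself at -0.60 and -0.68. DESeq2 called 4 lower against monocytes and 7 against C1q macrophages. Neutrophils, highest in Arg2, were thus lower in most tested genes of this list against C1q macrophages. Against monocytes the number lower was 4 to 8 of 9, depending on the method.

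Of the polyamine and hypusine list, 5 of 15 tested genes were higher and 6 lower in neutrophils than in monocytes, and 5 and 8 against C1q macrophages. All tested genes gave 23.9% higher and 21.5% lower against monocytes, and 27.7% and 28.1% against C1q macrophages. Sat1, which acetylates polyamines for export or breakdown, gave log2 1.64 ± 0.23 against monocytes (adjusted p = 9.1e-05), Oaz2, an antizyme that restrains Odc1, 1.87 ± 0.17 (2.6e-06), and Smox, spermine oxidase, 2.55 ± 0.21 against C1q macrophages (4.7e-07). Srm, spermidine synthase, was lower against monocytes at -2.34 ± 0.32 (7.3e-05). Smox was also the only gene of this list called between C1q macrophages and monocytes, at -1.36 ± 0.21 (adjusted p = 0.00770).

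Of the nitric oxide list, 1 of 10 tested genes was higher and 5 were lower in neutrophils than in monocytes. The shares over all tested genes were 23.9% higher and 21.5% lower. Gch1, the first enzyme of the tetrahydrobiopterin that Nos2 needs as cofactor, was among the lower at log2 -1.35 ± 0.21 (adjusted p = 0.00016), with Spr (-1.70 ± 0.36, 0.00164) and Qdpr (-1.55 ± 0.44, 0.0113) of the same pathway. Pts, between those enzymes in the pathway, was higher in neutrophils than in C1q macrophages at 1.04 ± 0.19 (0.00044), a call that was lost without TMM (0.0503). Gch1 was higher in C1q macrophages than in dendritic cells (1.22 ± 0.20, adjusted p = 0.00046), while Nos2 was not called between them, at 0 and 8 UMIs in C1q macrophages and none in dendritic cells. In that comparison 2 of 10 were higher and 1 lower.

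Of the itaconate list, 3 of 17 tested genes were higher and 5 lower in neutrophils than in monocytes, and without TMM 3 and 11, where 23.9% and 21.5% of all genes were higher and lower with TMM. Nfkbiz, which encodes the NF-kB cofactor IkB zeta, was higher at log2 2.54 ± 0.22 (adjusted p = 1.4e-06), as was Nfe2l2, the oxidative stress factor that itaconate activates, at 1.94 ± 0.31 (0.00021). Aco1, the cytosolic aconitase, was lower at -1.91 ± 0.51 (0.00738). Hmox1, a target of Nfe2l2, was lower in neutrophils than in C1q macrophages at -1.56 ± 0.50 (0.0167) and higher in C1q macrophages than in dendritic cells at 3.05 ± 0.56 (0.00121).

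In the tryptophan and kynurenine list, 6 of 7 tested genes were lower and 0 higher in C1q macrophages than in dendritic cells, with a median log2 of -3.06 against 0.01 over all genes. Kmo, kynurenine monooxygenase, had 137 and 61 UMIs in dendritic cells and 0 and 38 in C1q macrophages (log2 -5.22 ± 0.47, adjusted p = 4.2e-06). Il4i1, an amino acid oxidase, had 55 and 31 UMIs in dendritic cells and 0 and 1 in C1q macrophages. Ido1 itself was not part of this, since dendritic cells held no UMI of it. Against monocytes 3 of 7 were higher in dendritic cells and 0 lower.

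Genes that feed Nos2 and Irg1, from the interferon gamma and NF-kB list, were higher in neutrophils in 10 of 13 and lower in 1 of 13 against monocytes (median log2 1.01), and in 12 and 1 against C1q macrophages (median 1.24 against -0.11 over all genes). Without TMM the counts were 5 and 1, and 7 and 1, and by DESeq2 8 and 0, and 11 and 0. Irf1, the interferon response factor, gave 2.39 ± 0.36 against monocytes (adjusted p = 0.00016). Irf8 went the opposite way at -1.47 ± 0.51 (0.0311), a call that DESeq2 did not make. The classical activation list had 3 of 7 higher and 1 lower in neutrophils than in monocytes, led by Il1b (4.05 ± 0.29, 2.7e-07), Ptgs2 (3.35 ± 0.35, 7.0e-06) and Socs3 (2.55 ± 0.30, 2.0e-05). Of all tested genes 23.9% were higher and 21.5% lower in that comparison. The alternative activation list had 0 of 8 higher and 3 lower, and 3 of its 10 genes (Chil3, Mgl2 and Ccl22) were also gating markers.

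The list of interleukin 4 and 13, STAT3 and hypoxia input, which feeds Arg1, had 5 of 8 genes higher and 0 lower in neutrophils than in monocytes. Cebpb, a factor known to act on Arg1, was higher there (1.55 ± 0.20, adjusted p = 4.4e-05). Arg1 was not called in that comparison, and a link between the 2 genes in these cells was not tested. Without TMM that list gave 2 higher and 3 lower. Hypoxia and glycolysis genes were 4 of 12 higher in neutrophils than in monocytes and 0 lower, with Egln3 at 2.73 ± 0.31 (1.6e-05), but 3 and 5 without TMM. With TMM 23.9% of all tested genes were higher and 21.5% lower. In dendritic cells 1 of 12 was higher and 9 were lower than in monocytes, and in C1q macrophages 0 were higher and 5 lower, among them Slc2a1, the glucose transporter, at -0.91 ± 0.18 (adjusted p = 0.0287). Between large cavity and C1q macrophages 7 of the 10 lists held no called gene by edgeR's test or by DESeq2, with 0 to 4 genes in each at an unadjusted p under 0.05.

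Other genes were compared between Arg1-positive and Arg1-negative cells of the same gate. Among Apoe-positive C1q-low cells, 290 and 152 held Arg1 and 46 and 198 did not. The cells with Arg1 were deeper, with medians of 9665 and 11421 UMIs against 7417 and 9066. Over 7184 genes compared, the 10 with the largest ratio held in both libraries were led by Spp1, osteopontin (log2 3.53 and 2.72), Folr2 (5.96 and 2.41), Cd163, the haemoglobin scavenger receptor (2.84 and 2.22), and Pf4 (2.78 and 2.07), and also held Fam102b, Cbr2, Ltc4s, Prune2, Sbf2 and Lpl. In the neutrophil gate, with 20 and 79 Arg1-positive cells (medians of 2453 and 1575 UMIs, against 2170 and 1310 in the rest), the leading genes included Pf4 (4.72 and 4.01), Ccl7 (5.16 and 3.73) and Mrc1, the mannose receptor (4.40 and 3.62). No test was made on these ratios, since cells are not replicates.

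Log2 levels were compared over the 12 combinations of gate and library, after each library was centred on its own mean over gates. A shift shared by all gates of a library, such as most of that in Arg1, therefore does not enter. Among 8262 genes those most like Arg1 were Slc17a5, Pld1 and Twf1 (each with Pearson r 0.97), Mfsd7a and Cmklr1 (each 0.96). Those most like Irg1 included Lilr4b (0.96), Cmip (0.95), H2-Q10 (0.94) and Atg2a (0.93). Those most like Odc1 were Lrwd1 (0.98), Wdr77, Tmem29, Plekha2 and Numa1 (each 0.97). For Nos2, from 39 and 62 UMIs, they were Preb, Mmp8, Nfil3, Med7 and Alas1 (0.94 to 0.96). The points share 2 libraries and the genes were picked as the highest of many, so the values are a description.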

How the data were processed

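The authors deposited filtered UMI counts per gene and cell, 1 matrix for each of 2 libraries (10x Genomics, 3′ v2 kit). Per the submitters' processing notes they used Cell Ranger 3.0.1 and mm10. A cell was kept with at least 300 detected genes and at most 10% of UMIs from mitochondrial genes, which removed 25 and 61 cells. Gates used summed marker UMIs per 10000 UMIs of a cell (cuts neutrophil 100, C1q 20, large cavity 20, monocyte 20, dendritic 5, B 20, T or NK 10, plasmacytoid 10, Apoe 10, C1q-low under 10) and at least 3 marker UMIs. Cells of more than 1 gate (18 and 64) or none (71 and 124) were not used. No doublet caller was run. Gate cuts were set after marker distributions had been seen. The 8 genes, the lists and the tests were chosen with earlier results of these data known.

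UMIs were summed per gate and library and tested with edgeR 4.0.16 (R 4.3.3; filterByExpr, TMM, quasi-likelihood, Benjamini-Hochberg, threshold 0.05), with library as a block because every gate comes from the same 2 libraries. The script was tested on simulated data. DESeq2 1.42.0 was an alternative, as were no block, no TMM, no filter, other cuts, Leiden clusters (leidenalg 0.10.2), no cells of over 3 times the median, and the BC2 side of library 2. Python 3.11.15 with scipy 1.17.1 gave exact Poisson intervals of levels and binomial intervals of shares, which cover counting error only. A count of 0 allows up to 3 counts. Genes named from a list were up to 4 per list and comparison, with the largest called change of the same sign in both libraries. Arg1-positive and Arg1-negative cells were compared only where each side held 20 cells in each library. Of the genes these rules name, 2 are not reported here.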

Additional observations from a re-analysis of the deposited data

How the results depend on the processing

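Arg2, Irg1 and Nos2 (neutrophils against C1q macrophages) and Slc7a2 (large cavity against C1q macrophages) were called under all 10 alternative settings fitted, and Arg2 against monocytes under 9 of 9. Without the replicate block, calls among members fell from 2 to 0 (C1q macrophages against dendritic cells), from 2 to 0 (dendritic cells against monocytes) and from 5 to 3 (neutrophils against C1q macrophages), and Ass1 of neutrophils against monocytes was lost, 7 calls in all. It changed no other call. With the BC2 side of library 2 alone they fell from 4 to 1 (neutrophils against monocytes), from 2 to 0 (dendritic cells against monocytes) and from 5 to 3 (neutrophils against C1q macrophages). For dendritic cells against monocytes, DESeq2 called 1, raised cuts 4 and no filter on low counts 7, and for C1q macrophages against monocytes no filter called 4 in place of 0.

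Under settings that kept both libraries, some uncalled values reversed. They were Arg1 in neutrophils against monocytes at 0.48 (BC2 side) and Slc7a2 in C1q macrophages against monocytes at 0.062 (raised cuts). For large cavity against C1q macrophages they were Nos2 at -4.17 (Leiden clusters), and Irg1 at 0.23 and Ass1 at 0.035 (DESeq2). Uncalled values also differed in direction between the libraries. Among them, for large cavity against C1q macrophages, were Irg1 at log2 3.64 in library 1 and -1.34 in library 2, and Ass1 at 1.96 and -1.89. The called Ass1 of neutrophils against C1q macrophages was 0.79, reversed, without replicate 2 and -3.16 without replicate 1. Leaving out a library leaves values and no test. The cause was not tested.

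Over all genes, calls without the block fell from 4049 to 2422 (neutrophils against monocytes), 102 to 3 (C1q macrophages against monocytes), 1957 to 643 (C1q macrophages against dendritic cells), 1240 to 299 (dendritic cells against monocytes), 4972 to 3107 (neutrophils against C1q macrophages) and 466 to 136 (large cavity against C1q macrophages). The BC2 side alone gave, in that order, 259, 42, 1466, 823, 560 and 235. No filter on low counts gave 378 in place of 102 and 782 in place of 466, removal of large cells 156 and of neutrophils with Apoe or Pf4 160 in place of 102, and Leiden clusters 1048 in place of 1957. Clusters gave no monocytes in library 2, hence no value there.

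Of Nos2-positive cells with at least 2 UMIs of each gene, 100% and 80% (of 4 and 5 cells) held Arg1 in the monocyte and macrophage gates, and 0% and 20% (of 2 and 5 cells) in neutrophils. Neutrophils of library 1 (277539 UMIs in all) set the limit on depth: a gene at 0 there could reach 10.8 CPM.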

Other observations

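Within gates, Arg1 was also ranked against other genes across cells, a choice made after the data had been seen. In Apoe-positive C1q-low cells the highest Spearman rho among 2004 genes was that of Pf4 (0.55 in library 1 and 0.43 in library 2), followed by Mrc1 (0.40 and 0.39) and Lgals1, galectin-1 (0.54 and 0.38). In C1q macrophages Pf4 again led among 2255 genes, at 0.38 and 0.40. Depth itself correlated with Arg1 at 0.37 and 0.27 in the first gate and at 0.18 and 0.27 in the second.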
